A study of Mus musculus with 2 samples.

Results

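Microglia with a high sum of homeostatic transcripts made up 309 of 2985 kept cells in a mouse single-cell RNA sequencing study of microglia-like cells from the central nervous system. They numbered 124 of 1234 kept cells in the library labelled Cx3cr1-/+ (Het) and 185 of 1751 in the library labelled Cx3cr1+/+ (WT). A cell was a member when C1qa, C1qb and C1qc summed to at least 5000 CPM (a gene's unique molecular identifiers, UMIs, as a share of the cell's UMIs, times 1000000) and P2ry12, Tmem119, Siglech and Sall1 to at least 1500 CPM. S100a8 and S100a9 had to stay under 20000 CPM, Apoe under 40000 CPM, and the class II genes H2-Aa, H2-Ab1 and H2-Eb1 together under 3000 CPM. Kept cells had 500 genes or more and less than 10% mitochondrial UMIs, and 339 barcodes found in both libraries were left out. The members were thus chosen by these measured values, so the levels of the 13 genes of the rule, and every contrast with cells that failed it, are descriptions.

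Each genotype had 1 library. For both, the labels give the same protocol: lineage-negative haematopoietic stem and progenitor cells, both GFP+ and GFP-, were sorted from Cx3cr1-/+ mice. CD45.1 recipients, conditioned with busulfan (4 doses of 25 mg/kg), which depletes marrow stem cells, received them intravenously. Recipients were given cells at a ratio of 1 donor to 1 recipient, and the labels give no other source for the WT library, so whether its donors were Cx3cr1+/+ animals rests on the genotype label. Sex, age, time after transplantation and the number of animals are not in the labels used here, and neither is a mark that separates donor cells from cells the recipient kept. With 1 library per genotype there was no test across animals, and every interval below is a 95% interval for counting error only.

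Microglia are the macrophages of the brain parenchyma. In the mouse, resident microglia arise from yolk sac progenitors and renew themselves in place, while marrow-derived cells can enter the niche after conditioning and take on part of the microglial programme. Homeostatic microglia are known for the ADP receptor P2ry12, the membrane protein Tmem119, the lectin Siglech and the zinc finger factor Sall1. Marrow-derived brain macrophages in mice are described as low in Sall1 and high in Ms4a7 and Apoe, and macrophages of the brain borders carry Mrc1, Pf4 and Lyve1. Cx3cr1 encodes the receptor for fractalkine, a chemokine made by neurons.

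The promoters of genes of the rule are shown because they set who was counted here and because the myeloid factor PU.1, which binds purine-rich DNA around GGAA, is known to act at microglial genes. Windows run from 250 bases before to 50 bases after the start of the gene in RefSeq on GRCm38.p6, and capitals mark GAGGAA or AGGAAG on either strand. These motifs overlap in GAGGAAG. P2ry12 lies on the minus strand at chr3:59262936-59263235, Siglech on the plus strand at chr7:55767934-55768233 and Sall1 on the minus strand at chr8:89044113-89044412.
P2ry12: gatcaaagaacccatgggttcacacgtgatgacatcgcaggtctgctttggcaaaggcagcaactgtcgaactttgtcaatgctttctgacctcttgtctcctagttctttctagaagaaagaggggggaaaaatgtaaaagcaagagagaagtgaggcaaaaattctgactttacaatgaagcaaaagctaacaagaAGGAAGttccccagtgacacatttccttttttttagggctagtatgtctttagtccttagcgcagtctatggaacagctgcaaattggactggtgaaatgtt
Siglech: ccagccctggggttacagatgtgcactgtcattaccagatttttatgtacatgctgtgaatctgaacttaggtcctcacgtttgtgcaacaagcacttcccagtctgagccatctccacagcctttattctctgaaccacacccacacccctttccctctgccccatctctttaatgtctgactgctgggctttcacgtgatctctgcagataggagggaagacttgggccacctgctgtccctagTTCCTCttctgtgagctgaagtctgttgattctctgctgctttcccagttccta
Sall1: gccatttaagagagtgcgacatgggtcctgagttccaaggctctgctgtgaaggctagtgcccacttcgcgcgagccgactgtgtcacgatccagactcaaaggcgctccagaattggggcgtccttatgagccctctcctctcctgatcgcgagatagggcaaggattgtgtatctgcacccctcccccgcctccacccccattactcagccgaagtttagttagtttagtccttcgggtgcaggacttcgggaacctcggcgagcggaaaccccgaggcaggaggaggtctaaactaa
P2ry12 had 1 match, AGGAAG on its own strand 52 bases before the start. Siglech had 1 match, GAGGAA on the opposite strand 4 bases before the start, which reads TTCCTC here. The Sall1 window shown, 1 of 3 that RefSeq lists for the gene, held neither. Among all 32851 promoter windows of this length, 46% held at least 1 of the motifs, so a match does not set these genes apart.

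The libraries held 17828344 UMIs in 1837 barcodes (Het) and 22062823 UMIs in 2359 barcodes (WT). Members had a median of 6021.5 UMIs and 2185 genes in Het and 5118 UMIs and 1902 genes in WT, and their summed UMIs came to 1016687 and 1373949. They made up 10.05% of kept Het cells (95% Clopper-Pearson interval 8.43 to 11.9) and 10.57% of kept WT cells (9.16 to 12.1). The intervals overlapped. The threshold on the homeostatic sum decided the most cells: 140 Het and 151 WT cells failed it alone, against 10 and 7 for Apoe. Nearest to it, a Het member had 1506.6 CPM and a Het cell outside 1451.4 CPM, and in WT these were 1500.4 and 1497.6 CPM.

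All 5 fixed markers of resident microglia, P2ry12, Tmem119, Siglech, Sall1 and C1qa, are genes of the rule, so their levels describe the choice of cells and do not check the label. P2ry12 stood at 1326 CPM of the summed UMIs in Het members (1256 to 1399) and 1386 CPM in WT members (1324 to 1449), and its median over cells was 1219 and 1246 CPM. Tmem119 reached 1025 CPM in Het and 986 CPM in WT, and Siglech 521 and 577 CPM. Sall1 was at 128 CPM in Het and 131 CPM in WT. In natural killer (NK) cells of the same libraries, which should lack it, Sall1 had 0 UMIs in Het (upper bound 14.1 CPM) and 2.96 CPM in WT. C1qa, a chain of the complement starter C1q, was at 7283 CPM in Het and 7050 CPM in WT. Outside the rule, Csf1r, the receptor that keeps microglia alive, was at 1805 CPM in Het and 1743 CPM in WT members, and at 38.2 and 20.7 CPM in NK cells.

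Of the marker lists of other cells, those of T cells, neurons, NK cells and dendritic cells were near 0. T cell genes summed to 1.97 CPM in Het and 1.46 CPM in WT members, neuron genes to 1.97 and 2.91 CPM, and NK genes to 4.92 and 9.46 CPM, with Ncr1, Klrb1c, Klre1 and Eomes at 0 in both. Dendritic cell genes came to 9.84 and 10.2 CPM. The neutrophil list summed to 2028 CPM in Het and 1360 CPM in WT, with S100a8 and S100a9, which the rule limits, at 696 and 792 CPM in Het and at 490 and 582 CPM in WT. Border-associated macrophage genes summed to 576 CPM in Het and 384 CPM in WT, classical monocyte genes to 279 and 665 CPM, and patrolling monocyte genes to 168 and 383 CPM.

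In most of the other lists 1 gene held most of the sum. Endothelial genes came to 726 CPM in Het and 472 CPM in WT, of which Bsg, a surface protein not limited to endothelium, gave 580 and 443 CPM. In Het members Cldn5 was at 12.8, Flt1 at 21.6, Ly6c1 at 37.4, Slco1a4 at 12.8 and Itm2a at 45.2 CPM. In WT Cldn5 was at 0.728 CPM and the others at 0. Pecam1 was lower in Het, at 15.7 against 28.4 CPM. The highest sum of this list in a single member was 20516 CPM in Het and 3185 CPM in WT. B cell genes came to 208.5 CPM in Het and 171 CPM in WT, with Ighm at 179 and 141 CPM and Ms4a1 at 0 in both. Choroid plexus genes came to 122 and 42.9 CPM, with Ttr at 119 and 42.2 CPM, and astrocyte genes to 121 and 130 CPM, with Slc1a3, also on the homeostatic list, at 104 and 121 CPM. Erythrocyte genes came to 106 and 146 CPM, with Hbb-bs at 74.8 and 93.2 CPM. Oligodendrocyte genes, spread over Mag and Mbp, came to 59.0 and 58.95 CPM. The label was thus not tested apart from the rule, and the clusters below show where border-macrophage and monocyte genes lay.

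**Figure D1:**
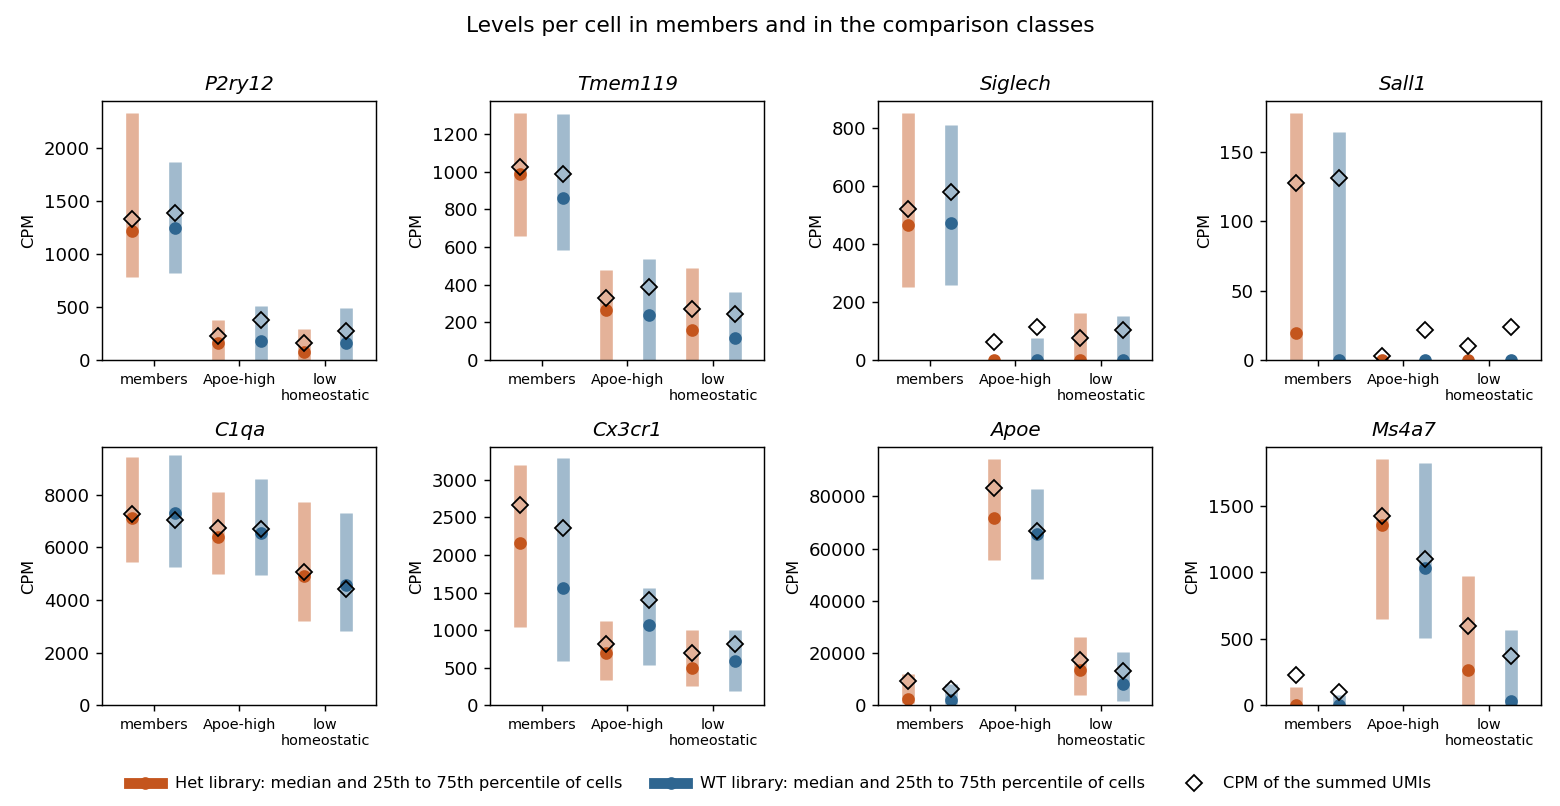
Levels per cell of P2ry12, Tmem119, Siglech, Sall1, C1qa, Cx3cr1, Apoe and Ms4a7 (CPM, vertical axis from 0), in members and in the 2 comparison classes, with the Het library left of the WT library. Circles are medians over cells, bars run from the 25th to the 75th percentile, and diamonds are the CPM of the summed UMIs. P2ry12 is at 1326 CPM in Het and 1386 CPM in WT members, and Ms4a7 is at 228 CPM in Het and 104 CPM in WT members, below both other classes.

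Cx3cr1, the gene named in the genotype labels, was not lower in the Het library. Members had 2660 CPM in Het (2560 to 2762) and 2353 CPM in WT (2273 to 2436), a log2 ratio of 0.18 (0.10 to 0.25). The medians over cells were 2155 CPM in Het and 1563 CPM in WT, and the ranges between the 25th and 75th percentiles of cells overlapped, from 1044 to 3192 CPM in Het and from 596.7 to 3283 CPM in WT. A 3′ count need not fall in the altered part of the allele, so this level does not check the genotype label. The protocol gives Cx3cr1-/+ for the mice the transplanted cells came from. No mark separates those cells from cells the recipient kept, so whether members carried the altered allele was not tested. In Xist-marked cells of both libraries alone the log2 ratio was -0.02.

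Clustering of the 309 members gave 4 groups that were all present in both libraries. It left out the genes of the rule, the sex-linked marks, and mitochondrial and ribosomal protein genes. A group of 48 Het and 64 WT cells had the highest Cx3cr1 and is called Cx3cr1-high. A group of 47 Het and 82 WT cells was almost without Malat1, a nuclear non-coding RNA, and is called Malat1-poor. The third, with 20 Het and 10 WT cells, was led by Ccl7, Cd209f, Lyve1, Ms4a7, Pf4 and Mrc1 and is called Mrc1-Ms4a7. The fourth, with 9 Het and 29 WT cells, was led by Plac8, S100a4, Chil3, Napsa, Hp and Cytip and is called Plac8-Ly6c2. Ly6c2 ranked 9 there and was found in 5 of the 38 cells, so it does not mark most of them, while Plac8 was found in 32. The names were chosen after the values were seen, and because every gene of the clustered cells shaped the groups, what follows describes them without testing them.

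The Cx3cr1-high cells also had the highest summed levels of P2ry12, Tmem119 and Sall1 among the 4 groups in both libraries. The other 2 fixed markers of resident microglia differed. C1qa was higher in Malat1-poor cells in both libraries, and Siglech in Het only, at 679 against 643 CPM. All 5 markers summed to 11027 CPM in Het and 11770 CPM in WT Cx3cr1-high cells, against 12331 and 11918 CPM in Malat1-poor cells. Cx3cr1 stood at 3619 CPM in Het and 3378 CPM in WT, P2ry12 at 1860 and 1776 CPM, Tmem119 at 1227 and 1380 CPM, and Sall1 at 165 and 182 CPM. Border-macrophage markers summed to 71.5 CPM in Het and 66.3 CPM in WT, with Cd163, Lyve1 and Cd209f at 0 in both, and classical monocyte markers to 41.9 and 60.1 CPM. Apoe was at 3417 CPM in Het and 3224 CPM in WT. By the ranking rule their leading genes were Itm2a, Cxcl12, Igfbp7, Ly6c1 and Flt1, endothelial and stromal genes that came from 1 to 4 cells each, followed by Socs3, an inhibitor of cytokine signalling, in 94 cells.

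The Malat1-poor cells had little nuclear and immediate early RNA and levels of several surface genes near those of Cx3cr1-high cells. Their median Malat1 was 175 CPM in Het and 146 CPM in WT, against 53830 and 48080 CPM in Cx3cr1-high cells. The lncRNA Neat1 was at 22.3 CPM in Het and 13.8 CPM in WT, against 384 and 547 CPM. Jun, an immediate early factor, was at 167 CPM in Het and 201 CPM in WT, against 6792 and 7023 CPM in Cx3cr1-high cells. Fos was at 384 CPM in Het and 408 CPM in WT, against 5728 and 5815 CPM. In both libraries 18 of 20 tested immediate early and heat shock genes were at least 1.5-fold lower, with a median log2 ratio of -3.80 in Het and -3.55 in WT, beside 29.8% of all 3789 genes tested and medians over all genes of -0.29 and -0.26. Of 17 tested transcription factors 13 were lower, Mef2a among them at 139 CPM in Het and 218 CPM in WT, against 828 and 748 CPM.

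Some abundant transcripts were higher in these cells. Cst3, the protease inhibitor cystatin C, took 51994 CPM in Het and 48524 CPM in WT, against 30029 and 29498 CPM in Cx3cr1-high cells, and the signalling adaptor Tyrobp 5704 and 5539 CPM, against 2636 and 2661 CPM. Of 27 homeostatic genes tested, 10 were lower and 1, Cst3, was higher, beside 29.8% lower and 12% higher over all genes. Trem2 was at 2014 CPM in Het and 1879 CPM in WT, against 1720 and 1654 CPM, within 1.5-fold. Sall1 was lower, at 89.0 CPM in Het and 69.2 CPM in WT. Mitochondrial UMIs had a median of 4.75% in Het and 3.70% in WT, against 1.93 and 2.15%, ribosomal protein UMIs made up 20.8 and 21.8%, against 10.7 and 10.8%, and the median depth was 3359 and 2518.5 UMIs, against 7114.5 and 6235. The part of RNA quality in these values was not tested.

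Low Malat1 was not particular to the members. Under 1000 CPM of Malat1 were 33.1% of members in Het and 36.8% in WT, 12.03 and 29.3% of Apoe-high C1q macrophages, 29.3 and 35.8% of C1q macrophages low in homeostatic genes, and 9.89 and 9.71% of all kept cells. No NK cell was among them, 0 of 26 in Het and 0 of 55 in WT, with exact upper bounds of 13.2 and 6.49%.

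The Mrc1-Ms4a7 cells carried genes of border and marrow-derived macrophages beside the microglial ones. Mrc1, a mannose receptor, was at 426 CPM in Het and 287 CPM in WT, against 12.3 and 26.9 CPM in Cx3cr1-high cells. Ms4a7 was at 679 CPM in Het and 361 CPM in WT, against 29.6 and 31.1 CPM, and the chemokine Pf4 at 944 and 521 CPM, against 46.8 and 31.1 CPM. Apoe was at 22336 CPM in Het and 20058 CPM in WT. Of the list of marrow-derived brain macrophages 11 of 15 tested genes were higher in both libraries, and 4 of 5 border-macrophage genes, beside 4.01% of all 4016 genes tested. Of 27 homeostatic genes 11 were lower, beside 4.13% of all; P2ry12 was at 964 CPM in Het and 988 CPM in WT, against 1860 and 1776 CPM. Sall1 stood at 157 CPM in Het and 106 CPM in WT, against 165 and 182 CPM, and was not past 1.5-fold in both.

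The Plac8-Ly6c2 cells carried monocyte genes, and some carried cell cycle genes. Plac8, a gene of monocytes and other marrow-derived cells, was at 626 CPM in Het and 1022 CPM in WT, against 7.39 and 35.2 CPM in Cx3cr1-high cells. Lgals3, a galectin of recruited macrophages, was at 357 CPM in Het and 459 CPM in WT, against 17.3 and 37.3 CPM. The proliferation marker Mki67 was at 253 CPM in Het and 101.4 CPM in WT, against 2.46 and 6.22 CPM, and 11 of 14 tested cell cycle genes were higher in both libraries, beside 8.51% of all 4441 genes. At least 5 of 9 cell cycle genes were found in 5 of 9 Het and 8 of 29 WT cells of this group, and in 0 of 48 and 1 of 64 Cx3cr1-high cells. The median depth was 19753 UMIs in Het and 11120 in WT, against 7114.5 and 6235. After thinning each cell to 2000 UMIs they were 4 of 9 and 3 of 29, against 0 of 44 and 0 of 56. Among Malat1-poor cells they were 3 of 47 in Het and 4 of 82 in WT, and 0 of 35 and 3 of 54 after thinning. Among Mrc1-Ms4a7 cells they were 1 of 20 and 0 of 10, and 0 of 19 and 0 of 10 after thinning. Homeostatic genes were lower for 16 of 27, beside 6.39% of all, with P2ry12 at 752 CPM in Het and 1150 CPM in WT.

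**Figure D2:**
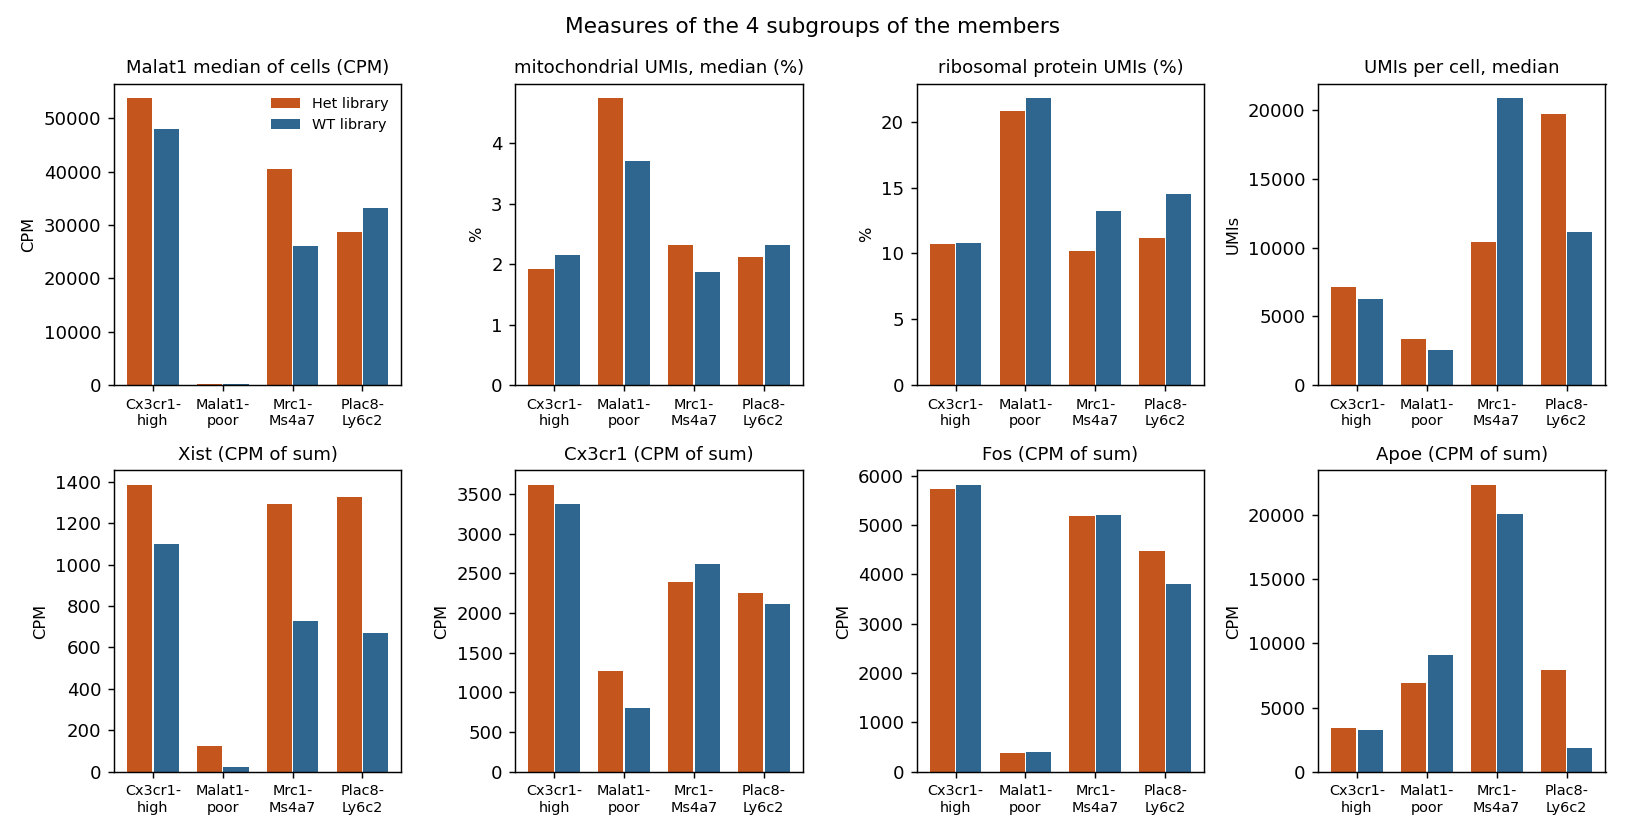
Measures of the 4 groups of members, with 1 bar per library and the Het library left of the WT library, each vertical axis starting at 0 (CPM, % or UMIs as labelled). Malat1 falls to a median of 175 CPM (Het) and 146 CPM (WT) in the Malat1-poor group, and Apoe is highest in the Mrc1-Ms4a7 group.

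Between genotypes the 5 tested classical monocyte markers and 6 of 7 patrolling monocyte markers were lower in Het members, and 3 of 7 tested border-macrophage genes, Pf4, Mrc1 and Stab1, were higher. Genes were tested with at least 50 UMIs over both libraries and a mean of at least 20 CPM, and called when the ratio reached 1.5-fold. Of 5747 genes tested, 329 were higher in Het (5.72%) and 214 lower (3.72%). With TMM scaling of the sums the split turned round, to 200 higher and 324 lower, and with median-of-ratios scaling to 199 and 330, since these scalings moved all log2 ratios by -0.10. The median over all genes was 0.05 by CPM, and list medians below are to be read against it. Counts of called genes in lists, over all members, are to be read against the 5.72% higher and 3.72% lower.

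None of 27 tested homeostatic genes of a list of 28 was called, P2ry12, Tmem119 and Siglech of the rule among them, and their median log2 ratio was 0.05. The same threshold on P2ry12, Tmem119, Siglech and Sall1 chose the members of both libraries, so closeness between genotypes in these and related genes was set in part by the rule and is a description. Sparc, a secreted matrix protein of microglia, stood at 2341 CPM in Het members and 2279 CPM in WT members. The purinergic receptor gene P2ry13 was at 218 CPM in Het and 173 CPM in WT, and Gpr34 at 1003 and 901 CPM. Trem2, a lipid-sensing receptor, was at 1567 and 1463 CPM. None of 29 cathepsin and lysosomal genes was called either, nor any of 13 TGF-β pathway genes or 6 Fc receptor genes. Over all genes tested 5.72% were higher and 3.72% lower, so an absence of calls does not set lists this short apart.

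Of 19 tested transcription factors 2 were lower in Het and none higher. Bhlhe40 was at 13.8 CPM in Het and 51.0 CPM in WT, and Mitf, a lysosomal regulator, at 22.6 and 44.4 CPM. Without the Plac8-Ly6c2 group the log2 ratio of Bhlhe40 turned to 0.69, against -1.89 with it, and that of Mitf was -1.09, against -0.97. Bhlhe40 then had fewer than 50 UMIs over both libraries, under the minimum for testing. The lineage factor Spi1, which encodes PU.1, was at 402 CPM in Het and 396 CPM in WT, and Mef2c at 877 and 748 CPM.

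Of 7 tested macrophage genes seen at the brain's borders 3 were called higher in Het members and none lower. Pf4 was at 322 CPM in Het and 165 CPM in WT, a log2 ratio of 0.96 (0.71 to 1.21), Mrc1 at 147 and 83.7 CPM (0.81, 0.45 to 1.17), and the scavenger receptor Stab1 at 341 and 215 CPM (0.66, 0.44 to 0.89). Ms4a7 was at 228 CPM in Het and 104 CPM in WT (1.13, 0.83 to 1.44). Other border markers fell under the minimum for testing, Cd209f with 0 UMIs in Het and 49 in WT (35.7 CPM), 43 of them in 1 cell, and Cd163 at 1.97 CPM in Het and 11.7 CPM in WT. The Mrc1-Ms4a7 group, 20 Het and 10 WT cells, moved with the called genes. Within Cx3cr1-high cells the log2 ratio was -0.07 for Ms4a7, -1.13 for Mrc1, 0.05 for Stab1 and 0.59 for Pf4. There Ms4a7, Mrc1 and Pf4 each had fewer than 50 UMIs over both libraries, under the minimum for testing. The sign of Mrc1 in those cells thus rests on few UMIs. Among Xist-marked cells alone the log2 ratio was 1.56 for Ms4a7, 1.25 for Mrc1, 0.58 for Stab1 and 2.26 for Pf4. Without the Plac8-Ly6c2 group it was 0.91, 0.61, 0.54 and 0.76 in the same order. With TMM scaling Stab1 stood at 0.56, short of 1.5-fold, and Ms4a7, Mrc1 and Pf4 stayed past it.

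Monocyte genes were lower in Het members. The 5 tested classical monocyte markers, Ly6c2, Ccr2, Chil3, Plac8 and S100a4, were all called lower, as were 6 of 7 patrolling monocyte markers. Plac8 was at 122 CPM in Het and 334 CPM in WT. Spn, which encodes the sialophorin of patrolling monocytes, was at 9.84 CPM in Het and 52.4 CPM in WT, and Ear2 at 9.84 and 58.2 CPM. Lgals3 stood at 87.5 CPM in Het and 169 CPM in WT, and the interferon-induced Ifitm3 at 319 and 537 CPM. Among Xist-marked cells alone the log2 ratio was -0.06 for Lgals3, against -0.95 in all members, and -0.04 for Ifitm3, against -0.75. The Plac8-Ly6c2 group, 9 Het and 29 WT cells, moved with them. Without it the log2 ratio of Ear2 was -0.48, against -2.57 with it. That of Cd300e was -0.06, against -2.40, and that of Spn 0.20, against -2.41, a change of sign. Ccr2, at 26.6 CPM in Het and 40.0 CPM in WT, was found in 8 cells of each library. Its interval held 0 (-1.31 to 0.10), and it also changed sign without that group (0.20). Outside that group Cd300e, Spn and Ccr2 each had fewer than 50 UMIs over both libraries, under the minimum for testing. The changes of sign of Spn and Ccr2 thus rest on few UMIs.

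Genes with the highest Het over WT ratios rested in part on single cells. Cxcl12 had 50 UMIs in Het and 2 in WT, all 50 in 1 Het cell, and Igfbp7 52 and 1, of which 49 were in 1 Het cell. Spp1, the secreted phosphoprotein osteopontin, was at 454 CPM in Het and 88.8 CPM in WT (2.36, 2.06 to 2.66), with 194 of 462 Het UMIs in 1 cell. In Cx3cr1-high cells it was lower in Het, at 27.1 against 99.5 CPM in WT. Vcam1, an adhesion molecule, was at 105 CPM in Het and 18.9 CPM in WT, with 56 UMIs in 1 Het cell, and was also of opposite sign in Cx3cr1-high cells (-1.87). Pltp, a phospholipid transfer protein, was at 55.1 and 10.2 CPM, and 36 of its UMIs were in 1 Het cell; without the richest cell of each library its log2 ratio was 1.08, against 2.43.

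Msi2, Slc2a1 and Ttr were spread over more cells. Msi2, which encodes an RNA-binding protein, was at 46.2 CPM in Het and 13.8 CPM in WT (1.74, 0.94 to 2.59), in 29 Het and 18 WT cells. Slc2a1, a glucose transporter, was at 58.0 and 20.4 CPM (1.51, 0.84 to 2.21), in 32 and 22 cells, with 20 of its Het UMIs in 1 cell. Ttr, the transthyretin of the choroid plexus, was at 119 CPM in Het and 42.2 CPM in WT (1.495, 1.03 to 1.97), and in NK cells at 141 and 35.6 CPM, so the library difference was as large in a cell type that should lack it. The granule gene Ngp of neutrophils was at 160 CPM in Het and 50.2 CPM in WT members, and at 57.3 and 53.3 CPM in NK cells; 71 of its Het UMIs lay in 1 member.

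Response genes were mixed. Of 22 tested immediate early and heat shock genes only Fosl2 was called, at 60.0 CPM in Het and 34.9 CPM in WT; Fos stood at 4427 and 3991 CPM and Egr1 at 1742 and 1496 CPM. Of 22 cytokine, chemokine and NF-κB feedback genes, Ccl2, which attracts monocytes, was lower, at 305 CPM in Het and 521 CPM in WT, and Cxcl10 higher, at 157 and 76.4 CPM, with 95 of 160 Het UMIs in 1 cell. Without that cell and its WT counterpart the log2 ratio of Cxcl10 was 0.16, against 1.04. Of 22 tested disease-associated microglia genes, Spp1, Lpl and Igf1 were higher and Cst7, Lgals3, Fabp5 and Ccl6 lower. Cst7, a cystatin, was at 54.1 CPM in Het and 93.2 CPM in WT members, but was called higher in Het within Cx3cr1-high cells, at 113 and 60.1 CPM, with 19 of 46 Het UMIs in 1 cell. Igf1 had a log2 ratio of 0.99, and of -0.00 at a homeostatic sum of 3000 CPM. Of 12 sterol-handling genes 2 were higher, the cholesterol exporter Abca1 at 324 CPM in Het and 207 CPM in WT, and the lipase Lpl at 47.2 and 23.3 CPM. The log2 ratio of Abca1 was 0.64, but -0.15 at a homeostatic sum of 3000 CPM, -0.27 in Cx3cr1-high cells, and 0.54 with TMM scaling, short of 1.5-fold. That of Lpl was 1.02, and 0.35 among Xist-marked cells. Of 12 interferon-response genes Slfn5, Trim30a and Cxcl10 were higher and Ifitm3 and Ifitm2 lower. Slfn5 had an interval that held 0 (-0.24 to 1.46), and Trim30a stood at 0.66, and at 0.56 with TMM scaling, short of 1.5-fold. Ifitm2 had a log2 ratio of -0.73, which turned to 0.11 among Xist-marked cells.

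Within the 48 Het and 64 WT Cx3cr1-high cells, 151 of 2829 genes tested were higher in Het (5.34%) and 107 lower (3.78%), an alternative added after the data were seen. No homeostatic gene of 27, 3 of them of the rule, and no transcription factor of 15 was called. P2ry12 had a log2 ratio of 0.07 (-0.08 to 0.21), Tmem119 -0.17 (-0.34 to -0.00) and Sall1 -0.14 (-0.62 to 0.33). Of the 17 tested cytokine, chemokine and NF-κB feedback genes 3 were lower. Tnf was at 527 CPM in Het and 870 CPM in WT (-0.72, -0.97 to -0.48), Ccl2 at 158 and 402 CPM (-1.35, -1.78 to -0.94), and Cd83, an activation marker, at 301 and 520 CPM (-0.79, -1.12 to -0.47). Ccl4 was at 3114 CPM in Het and 4557 CPM in WT, short of 1.5-fold, and Ccl3 at 1082 and 1061 CPM. Il1b was called higher on 76.4 and 47.7 CPM, with an interval that held 0 (-0.14 to 1.53).

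**Figure D3:**
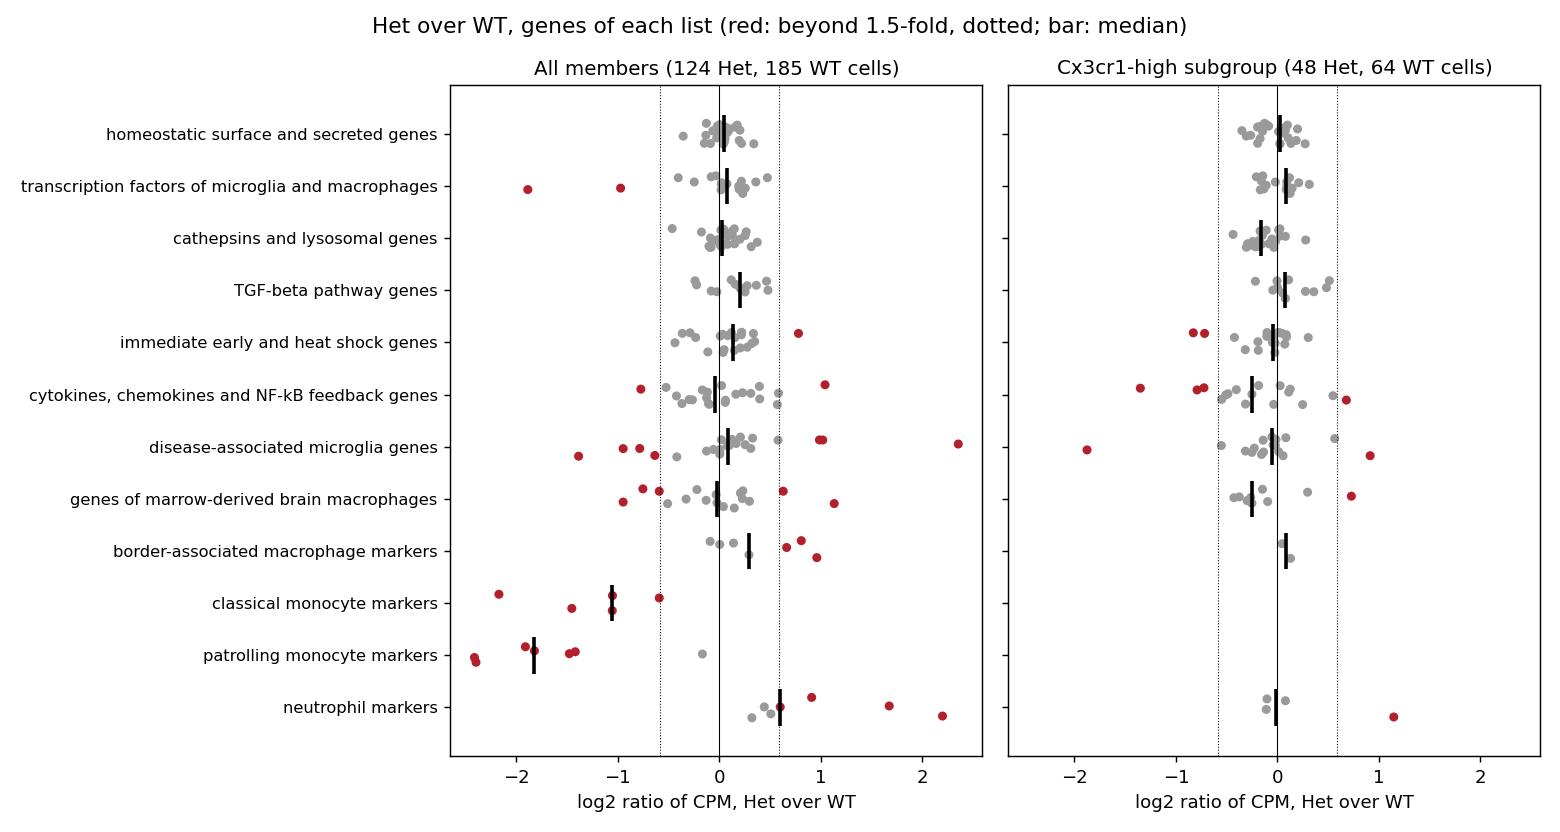
Log2 ratio of CPM, Het over WT (horizontal axis), for each tested gene of the lists on the vertical axis, in all members (left) and in Cx3cr1-high cells (right). Red points lie past 1.5-fold (dotted lines) and black bars are list medians. Homeostatic genes lie within 1.5-fold in both panels, while the monocyte markers lie to the left in all members.

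In the WT library most members with 1 kind of sex-chromosome mark carried Xist, while both macrophage classes set beside them held cells of either kind and NK cells Y-linked marks only, but for 1 cell with both. Xist, the RNA that coats the inactive X chromosome in females, and the Y-linked genes Ddx3y, Eif2s3y, Kdm5d and Uty were not part of the rule. In the Het library 78 of 124 members had Xist UMIs and 0 had Y-linked UMIs, so that Xist cells made up all 78 with a mark (lower bound 95.4%). Neither macrophage class nor the NK cells of that library held a cell with Y-linked UMIs. In the WT library 76 members had only Xist, 7 only Y-linked UMIs, 19 both and 83 neither. Among WT members with 1 kind of mark, Xist cells made up 91.6% (83.4 to 96.5). They made up 8 of 24 such cells among Apoe-high macrophages (33.3%, 15.6 to 55.3), 18 of 62 among macrophages low in homeostatic genes (29.0%, 18.2 to 42.0), and 0 of 21 among NK cells. After thinning to 2000 UMIs the shares were 98.5%, 53.8%, 48.5% and 0 of 12. All these cells come from 1 library, so the shares were not compared by a test.

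Within the WT members the groups differed in how many cells carried a mark. In Cx3cr1-high cells 56 had only Xist, 0 only Y-linked UMIs, 3 both and 5 neither. Of 82 Malat1-poor cells 76 had neither, as had 43 of 47 in Het, so most of these cells carried no mark. The 7 Y-marked members were 3 Malat1-poor, 2 Mrc1-Ms4a7 and 2 Plac8-Ly6c2 cells, too few to tie a kind of mark to a group. Both marks at once were found in 12 of 29 Plac8-Ly6c2 and 4 of 10 Mrc1-Ms4a7 cells, which were also the deepest, with medians of 11120 and 20895.5 UMIs. Whether those barcodes held 2 cells or free RNA was not tested, and results without them are in the section on processing.

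Compared with the 7 Y-marked WT members, the 76 Xist-marked ones had 844 of 2445 tested genes higher (34.5%) and 394 lower (16.1%). Homeostatic genes were higher for 13 of 27, with P2ry12 at 1630 against 812 CPM, Tmem119 at 1166 against 537 CPM and Cx3cr1 at 3004 against 1142 CPM. Immediate early genes were higher for 15 of 19, with Egr1 at 2110 against 68.8 CPM. Malat1 was at 43206 against 12080 CPM, and 3 of the 7 Y-marked cells were Malat1-poor against 3 of the 76. Il1b, at 68.3 against 1679 CPM, had 116 of its 122 UMIs of the Y-marked cells in 1 cell.

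**Figure D4:**
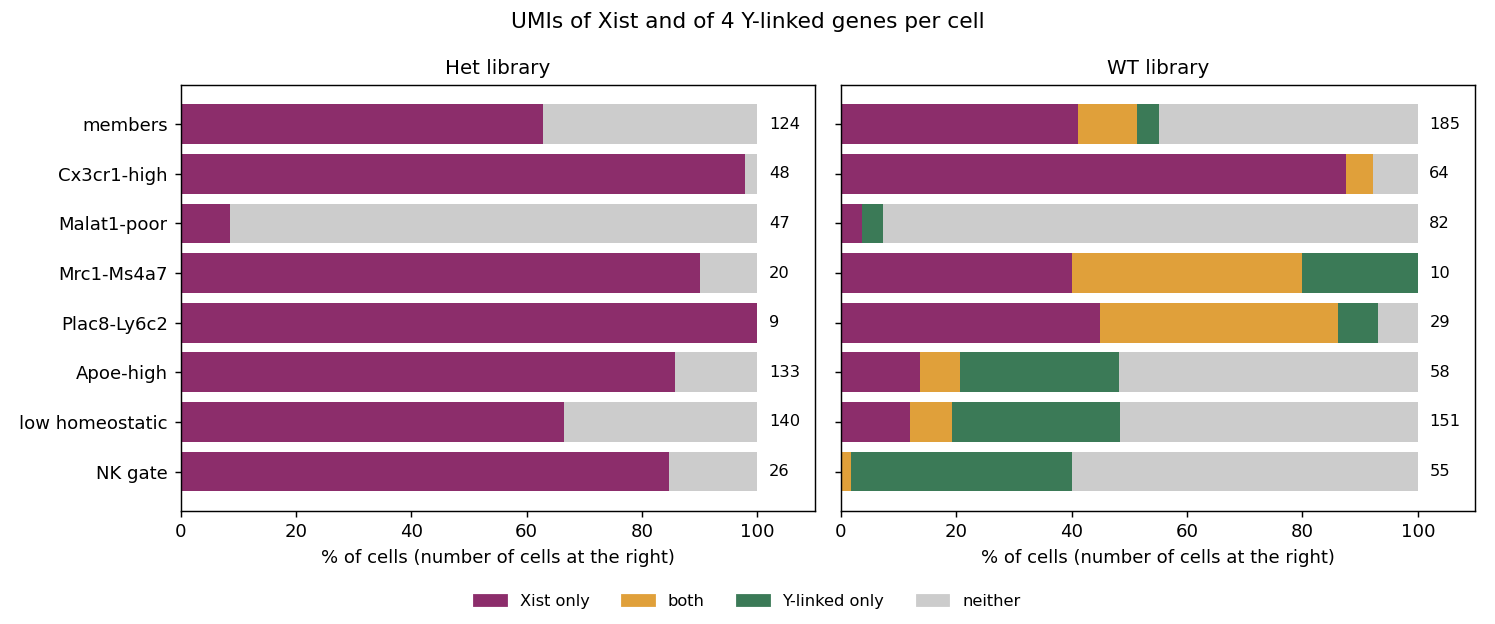
Share of cells (%, horizontal axis) with UMIs of Xist only, of both, of 4 Y-linked genes only or of neither, for the members, their 4 groups, both macrophage classes and NK cells, in the Het library (left) and the WT library (right), with the number of cells at the right of each bar. The WT members are mostly Xist-marked (76 against 7 Y-marked cells), and WT NK cells have 0 Xist-only cells.

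The members were set beside both C1q classes nearest to them. Apoe-high C1q macrophages (133 Het, 58 WT cells) met the C1q, S100 and class II thresholds and had Apoe at 40000 CPM or more, and C1q macrophages low in homeostatic genes (140 and 151 cells) missed only the homeostatic threshold. A gene was called when it passed 1.5-fold the same way in both libraries. Members were higher than the Apoe-high cells for 718 of 5625 genes (12.8%) and lower for 164 (2.92%), and against the low class 751 of 5780 (13%) were higher and 408 (7.06%) lower. The rule itself set these contrasts. Median depths lay close, at 6021.5 (Het) and 5118 UMIs (WT) in members, 6582 and 5529.5 in Apoe-high cells and 6569 and 5118 in the low class.

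Against Apoe-high cells, 20 of 27 tested homeostatic genes were higher in members, 3 of them genes of the rule. Sparc was at 2341 CPM in Het and 2279 CPM in WT members, against 251 and 418 CPM. The glutamate transporter Slc1a3 was at 104 CPM in Het and 121 CPM in WT, against 5.01 and 9.65 CPM, and the adhesion receptor Adgrg1 at 131 and 143 CPM, against 10.0 and 21.7 CPM. Crybb1, a crystallin of young microglia, was at 190 and 205 CPM, against 10.9 and 24.1 CPM, and Fscn1, an actin-bundling protein, at 230 and 257 CPM, against 15.02 and 38.6 CPM. Csf1r and Trem2 were not called; Trem2 was at 1567 CPM in Het and 1463 CPM in WT members, against 2227 and 1583 CPM.

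Lower in members were genes of lipid-laden and recruited phagocytes. Gpnmb, a glycoprotein of such cells, was at 22.6 CPM in Het and 3.64 CPM in WT members, against 962 and 159 CPM in Apoe-high cells. Spp1 was at 454 and 88.8 CPM, against 7356 and 4313 CPM. The lysozyme gene Lyz2 was at 2300 and 2050 CPM, against 25668 and 15137 CPM, and Ms4a7 at 228 and 104 CPM, against 1422 and 1096 CPM. Of 24 tested disease-associated genes 10 were lower and 2 higher, and of 17 marrow-derived macrophage genes 9 were lower and 3 higher.

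Against macrophages low in homeostatic genes, 26 of 27 tested homeostatic genes were higher. They include P2ry12, Tmem119 and Siglech, whose difference was set by the threshold that parts the classes. Csf1r, outside the rule, was at 1805 CPM in Het and 1743 CPM in WT members, against 987 and 1024 CPM. The neuron navigator gene Nav3 was at 129 and 112.1 CPM, against 3.15 and 11.9 CPM, the fructose transporter Slc2a5 at 141 and 136 CPM, against 11.8 and 23.02 CPM, and Sall3, a relative of Sall1, at 57.1 and 67.7 CPM, against 3.15 and 7.43 CPM. Of 19 transcription factors 10 were higher and 2 lower. Mef2c was at 877 and 748 CPM, against 445 and 455 CPM, while Cebpb, a factor of inflammatory myeloid cells, was at 867 and 1147 CPM, against 1488 and 2018 CPM. Of 13 TGF-β pathway genes 6 were higher, with the receptor Tgfbr1 at 577 and 502 CPM, against 241 and 224 CPM.

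Monocyte-derived and interferon genes were lower in members than in that class. Of 18 marrow-derived macrophage genes 13 were lower and 1, Pmp22, higher, and of 15 interferon-response genes 11 were lower. Isg15 was at 23.6 CPM in Het and 32.8 CPM in WT members, against 67.6 and 70.6 CPM, and Ifitm3 at 319 and 537 CPM, against 964 and 1459 CPM. The chemokine Cxcl2 was at 467 and 626 CPM, against 3703 and 2844 CPM. Ferritin heavy chain, Fth1, was at 6272 and 7296 CPM, against 11845 and 12827 CPM. Cybb, the catalytic subunit of the phagocyte oxidase, was at 218 and 311 CPM, against 625 and 642 CPM.

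**Figure D5:**
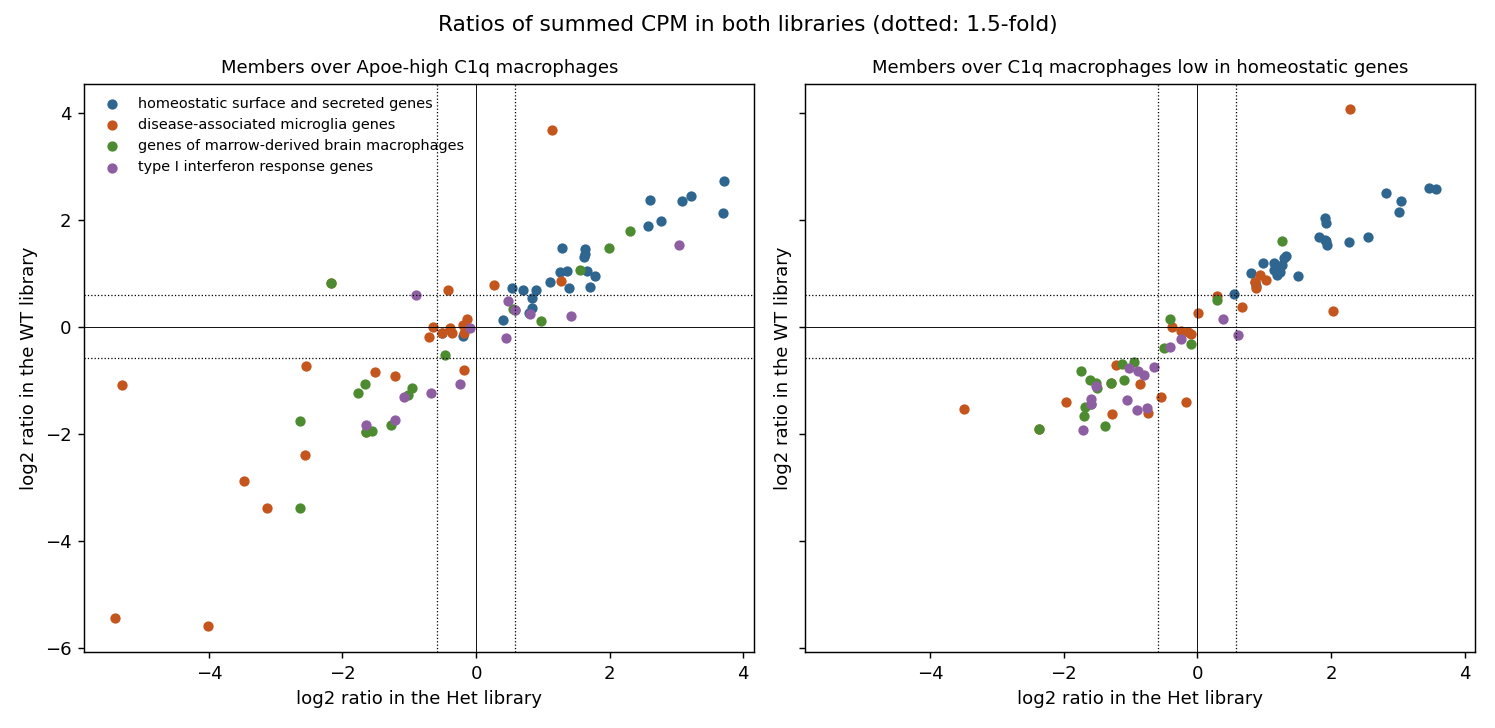
Log2 ratio of summed CPM, members over each comparison class, in the Het library (horizontal axis) and in the WT library (vertical axis), for tested genes of 4 lists given by colour, with 1.5-fold as dotted lines. Homeostatic genes lie at the upper right in both panels (20 and 26 of 27 past 1.5-fold in both libraries), and most marrow-derived macrophage genes at the lower left. The homeostatic counts include P2ry12, Tmem119 and Siglech of the rule.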

How the data were processed

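The authors deposited raw UMI counts per gene and cell barcode, not normalized, for 32285 genes. The kit was 10x Genomics Chromium 3′, per the labels' protocols. Cell Ranger 4.0 and mm10 are named in the submitters' processing notes, while the matrices were written by version 5.0.0, per the file headers. Which of them produced the counts is not given in the sources used here. No deposited barcode had fewer than 500 UMIs.

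UMIs were summed per library over the cells compared and given as CPM of that sum, with exact Poisson intervals. For ratios the 95% intervals are exact conditional binomial ones, and for shares exact Clopper-Pearson ones. They cover counting error only, since cells of 1 library are not replicates. Pairs of classes or groups were compared within each library. Cells were clustered with scanpy 1.11.5 (Leiden in igraph 0.11.9, resolution 0.5, 1000 variable genes, 15 components, 15 neighbours, seed 0). NK cells were kept cells with Ncr1, Klrb1c, Klre1 and Gzma together at 1000 CPM or more and C1q under 5000 CPM. Scrublet called 0 of 1234 Het and 2 of 1751 WT cells, none a member, too few for the caller to have worked, so no doublet was removed. Gene positions are from GENCODE M21 (GRCm38) and promoters from RefSeq, which held 6 of 8 genes looked up.

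The members, the 34 gene lists and the tests were chosen with earlier results of these data known. Named genes were those of the rule and Cx3cr1, the 12 highest and 12 lowest called Het over WT ratios, the 12 highest and 8 lowest of each class contrast, the 8 highest and lowest of the Xist contrast, up to 4 called or else 3 abundant members per list, and the 6 leading genes of each group; not all are printed, and others were named after their values were seen. The main alternatives were other cell filters, gate thresholds, UMI minimums, cell weights, thinning to 2000 UMIs and scaling by TMM (edgeR 4.0.16) or median of ratios (DESeq2 1.42.0), which gave scaling factors only. Those on single groups, on the richest cell of each gene and on Malat1 were added after the data were seen. The intervals were tested on simulated data. Python 3.11.15, numpy 2.4.6, scipy 1.17.1, pandas 2.3.3 and R 4.3.3 were used.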

Additional observations from a re-analysis of the deposited data

Results flagged for a closer look

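Genes of neutrophil granules differed in direction between libraries when members were set beside Apoe-high C1q macrophages. In the Het library Ltf was at 50.2 CPM in members and 15.02 CPM in Apoe-high cells (log2 ratio 1.74), and in the WT library at 10.9 and 480.3 CPM (-5.46), so the Het ratio exceeded the WT ratio by 7.1991. Ngp was at 160 CPM in members and 66.8 CPM in Apoe-high cells of the Het library, and at 50.2 and 869 CPM in the WT library, a difference of 5.3770. Lcn2 was at 67.9 and 40.9 CPM in the Het library and at 32.0 and 193.1 CPM in the WT library, a difference of 3.3231. Among WT Apoe-high cells 1 cell held 193 of 199 UMIs for Ltf, 339 of 360 for Ngp and 69 of 80 for Lcn2. Among Het members 1 cell held 32 of 51 for Ltf and 71 of 163, the smaller part, for Ngp.

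Beside C1q macrophages low in homeostatic genes, G0s2 was at 65.9 CPM in members and 10.2 CPM in that class in the Het library, and at 28.4 and 149.3 CPM in the WT library, a difference of 5.0832. Ifitm1 was at 58.0 and 12.6 CPM in the Het library and at 49.5 and 249.5 CPM in the WT library, a difference of 4.5394. Slpi was at 66.9 and 29.9 CPM in the Het library and at 26.9 and 184.9 CPM in the WT library, a difference of 3.9420. With 1 library per genotype, none of these 6 differences was tested. In Het members 52 of 67 UMIs of G0s2, 49 of 59 of Ifitm1 and 58 of 68 of Slpi lay in 1 cell.

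Some barcodes that were left out because both libraries list them met the rule for members. They were 7 of 255 kept shared barcodes in the Het library (2.745%, 1.11 to 5.57) and 8 of 198 in the WT library (4.04%, 1.76 to 7.81).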

How the results depend on the processing

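No paired analysis was possible because each genotype has 1 library, and for the same reason none could be left out. At the homeostatic sum of 3000 CPM no WT member was Y-marked, so the Xist contrast was not run there, and gene values under 10 UMIs were left out. Of 2040 values of single genes under the alternatives, 1743 stayed within counting error of the value reported, 268 moved further and 29 changed sign. The cause was not tested. The 1743 include 155 values at the minimum of 10 UMIs and 155 at that of 200. These could not move, because a UMI minimum changes which genes are tested and not their ratios.

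Members made up 8.234% of Het and 8.646% of WT cells under the stricter cell filter (1000 genes, 5% mitochondrial UMIs), 4.943 and 4.455% at 3000 CPM, and 8.216 and 8.356% of cells with at least 5000 UMIs. Het over WT counts of higher and lower genes were 596 and 375 with equal weight per cell, 28 and 29 with at least 200 UMIs, 200 and 324 with TMM, 199 and 330 with median of ratios, 82 and 67 after thinning (107 Het and 149 WT members left), and 151 and 107 in Cx3cr1-high cells. Higher genes numbered 198 at 3000 CPM. Lower genes numbered 122 with Xist-marked cells only, 116 without cells holding both marks and 114 without the Plac8-Ly6c2 group. Members over Apoe-high cells gave 276 lower genes at 3000 CPM, 365 higher and 82 lower with at least 200 UMIs, and 1100 and 351 for Cx3cr1-high members. Over the class low in homeostatic genes there were 466 higher with at least 200 UMIs, and 1214 higher and 805 lower for Cx3cr1-high members. Xist over Y gave 1790 and 1284 with at least 10 UMIs, 153 and 130 with at least 200, and 143 and 129 after thinning.

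These log2 ratios of Het over WT changed sign. At 3000 CPM they were Vcam1 -2.0033, Spp1 -1.0992, Clec12a -0.7809, Igf1 -0.0033, Abca1 -0.1457, Trpv2 0.1487, Ube2c -1.4627 and Cxcr4 0.4118. In Cx3cr1-high cells they were Vcam1 -1.8659, Spp1 -1.8759, Ms4a7 -0.0723, Mrc1 -1.1289, Cxcl10 -0.6629, Abca1 -0.2678, Slc7a11 0.2496 and P2rx7 -0.2880. Without the Plac8-Ly6c2 group they were Spn 0.2020, Bhlhe40 0.6874, Cxcl10 -0.1420, Cfp 0.5645, Ube2c -0.3341 and Ccr2 0.2020. With Xist-marked cells only they were Ifitm2 0.1126, Cfp 0.6337 and Ccr2 0.4411, and without cells holding both marks Cfp 0.1485 and Ccr2 0.7164. Ccr2 was also 0.3239 with equal weight per cell and 0.7001 after thinning. Without the Plac8-Ly6c2 group Spn, Bhlhe40 and Ccr2 each had fewer than 50 UMIs over both libraries, as had Ms4a7 and Mrc1 in Cx3cr1-high cells.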
